A study of Mus musculus with 2 samples.

Results

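Collagens and laminins are the chains from which the extracellular matrix of skin and its basement membranes are built. The genes described here are all those whose symbol in the expression table is that of a collagen chain, such as Col17a1, or of a laminin alpha, beta or gamma chain, such as Lama5. There were 55 of them, 44 collagen genes and 11 laminin genes, among 42392 gene IDs in the table. They were measured by RNA-seq in hair follicle stem cells, long-lived epithelial cells that sit in the bulge of the follicle and rebuild the hair. The group is labelled anagen II-III, the early growth phase of the hair cycle, and is 1 library from the skin of female mice with the genotype K15-CrePGR; Shh+/-, given RU486 for 8 days. K15-CrePGR places a Cre recombinase fused to the progesterone receptor under a keratin 15 promoter, Shh+/- leaves 1 functional copy of the gene for the ligand Sonic hedgehog, and RU486 is the drug that activates such a Cre. A telogen sample with the same genotype, sex and treatment also belongs to the series and was not analysed here. The anagen library has no replicate, so no value below carries an error and no test was made. Whether animals were pooled in it is not stated.

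Every collagen and laminin works as a trimer. Collagen chains wind around each other in a triple helix, and the classes differ in what the helices build. Fibrillar collagens form the banded fibrils of the dermis, type IV collagen forms the sheet of the basement membrane, and others link these structures or span the cell membrane. Laminins are crosses of 1 alpha, 1 beta and 1 gamma chain that lie next to the epithelial cells and bind their integrins. In the follicle the basement membrane separates the bulge stem cells from the dermal sheath, and hemidesmosomes, which contain type XVII collagen, fasten the cells to it.

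The library held the listed marker transcripts of the bulge and of basal keratinocytes. All 8 listed bulge markers lay at 16.1 TPM or more, with Krt15 at 3364 TPM. Itga6, on this list, encodes a protein for which the cells were selected. All 4 basal keratinocyte markers were at 10 TPM or more, with Krt5 at 3833 TPM. Of nuclear protein-coding genes, 31.8% were at 10 TPM or more. TPM, a measure of transcript abundance, divides the reads of a gene by its length. The results are then scaled to sum to 1000000 over the library, so levels of different genes can be set side by side. TPM keeps no read depth, which is unknown here, so no value has an interval and no lowest detectable level is known. In a bulk library, a gene's level reflects both how many of the cells carry it and how much RNA each one holds, and these cannot be told apart. Of 10 fibroblast markers, all were at 1 TPM or more, against 55.9% of protein-coding genes. They summed to 236 TPM, from Pdgfra at 1.44 TPM and Pdgfrb at 1.81 TPM up to Dcn at 63.9 TPM. Thy1 at 61.1 TPM and Vim at 60.5 TPM were the next highest of them. Pdgfra encodes CD140a, and cells with that protein were excluded in the sort. Markers of melanocytes summed to 43.7 TPM over 5 genes, of Schwann cells to 14.0 TPM over 4 and of leukocytes to 28.6 TPM over 4. None was at 0, whereas 4225 of the 20857 protein-coding genes were. Sox10, at 0.602 TPM, is on both the melanocyte and the Schwann list, and the leukocyte gene Ptprc stood at 0.264 TPM. Which cell types the collagen and laminin levels below came from was not tested.

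Stretches of genome before the starts of 5 members are shown first, because the results below compare their levels. Col17a1 and Col3a1 were 2 of the 3 highest members, Col1a2 encodes the partner of Col1a1, and Col4a5 and Col4a6 are neighbours that point away from each other on the X chromosome. The sequences are from RefSeq, build GRCm38.p6, read 5′ to 3′ on the gene's own strand up to the start of the annotated gene. Col17a1 is at chr19:47692043-47692292 on the minus strand, Col3a1 at chr1:45311288-45311537 on the plus strand and Col1a2 at chr6:4505368-4505617 on the plus strand. Col4a5 is at chrX:141475169-141475369 on the plus strand and Col4a6 at chrX:141474096-141474326 on the minus strand. Capitals mark matches on either strand to GGGCGG, known as the GC box, to CCAAT, known as the CCAAT box, and to TATAAA, known as the TATA box.
Col17a1: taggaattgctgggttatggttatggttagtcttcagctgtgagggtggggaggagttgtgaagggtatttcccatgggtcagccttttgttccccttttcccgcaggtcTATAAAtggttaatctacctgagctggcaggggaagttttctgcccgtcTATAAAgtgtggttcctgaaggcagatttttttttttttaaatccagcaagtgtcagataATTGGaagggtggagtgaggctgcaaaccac
Col3a1: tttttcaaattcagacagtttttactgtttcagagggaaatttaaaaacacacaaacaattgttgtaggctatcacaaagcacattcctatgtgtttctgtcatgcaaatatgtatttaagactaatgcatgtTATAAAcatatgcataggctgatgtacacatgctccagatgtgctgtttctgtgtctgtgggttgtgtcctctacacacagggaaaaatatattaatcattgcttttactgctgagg
Col1a2: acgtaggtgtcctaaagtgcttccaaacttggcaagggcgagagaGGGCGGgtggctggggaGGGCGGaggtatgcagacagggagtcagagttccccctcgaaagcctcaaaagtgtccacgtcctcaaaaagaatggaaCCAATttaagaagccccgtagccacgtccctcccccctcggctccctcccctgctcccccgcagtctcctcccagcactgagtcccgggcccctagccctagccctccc
Col4a5: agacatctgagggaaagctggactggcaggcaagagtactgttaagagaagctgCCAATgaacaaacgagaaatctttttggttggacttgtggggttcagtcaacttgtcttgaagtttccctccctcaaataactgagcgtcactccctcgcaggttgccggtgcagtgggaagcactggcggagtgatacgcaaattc
Col4a6: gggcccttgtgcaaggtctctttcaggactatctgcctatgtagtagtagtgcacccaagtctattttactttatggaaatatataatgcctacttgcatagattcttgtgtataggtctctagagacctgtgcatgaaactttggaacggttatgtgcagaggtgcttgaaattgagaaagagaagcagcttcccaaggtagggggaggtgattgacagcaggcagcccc

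Most of the summed level of the collagens and laminins was in their 10 highest members. Of the 55 genes, 36 were at 1 TPM or more, which is 65.5%, against 55.9% of the 20857 nuclear protein-coding genes. At 10 TPM or more the count was 24 genes (43.6%), against 31.8% of protein-coding genes, and at 100 TPM or more it was 10 genes (18.2%), against 3.46%. The median over all 55 was 4.06 TPM, against 2.42 TPM over all protein-coding genes. The upper quartiles stood further apart than the medians, at 49.0 TPM for the collagens and laminins and 14.8 TPM for protein-coding genes. None of the 55 was listed at 0, whereas 4225 protein-coding genes were. The 55 genes summed to 2863 TPM, 0.286% of the library, and the 10 highest held 78.9% of that sum. The 19 genes under 1 TPM together held 0.195% of it. All protein-coding genes summed to 478586 TPM, of which those at 1 TPM or more held 477481 TPM. A small share under 1 TPM is therefore not particular to the collagens and laminins. The share held by the highest protein-coding genes was not computed.

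**Figure D1:**
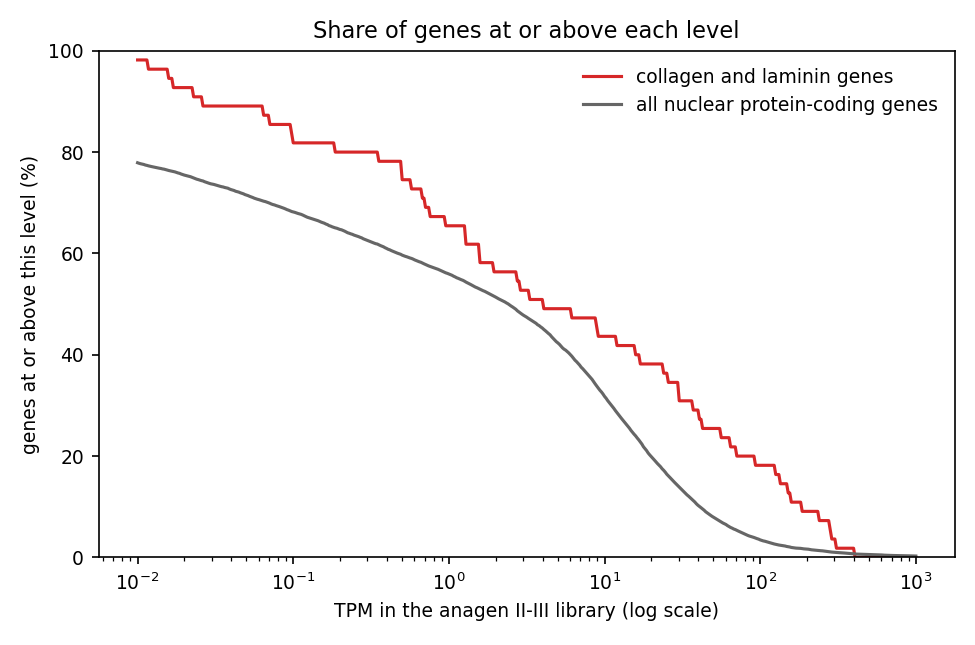
Percentage of genes at or above each TPM level (x axis, log scale) for the 55 collagen and laminin genes and for the 20857 nuclear protein-coding genes of the anagen II-III library. The collagen and laminin curve lies above the other over most of the range, with 18.2% against 3.46% of genes at 100 TPM.

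Several genes of basement membranes and of their attachment to epithelial cells were among the highest. Of 21 genes of type IV, VII, XV, XVII and XVIII collagens and all laminins, 19 (90.5%) were at 1 TPM or more. The share of protein-coding genes at that level was 55.9%. At 10 TPM or more there were 13 (61.9%), against 31.8%. The set includes chains known from other tissues, and its lowest member was Lama1 at 0.0228 TPM. The median over all 21 was 39.9 TPM, against 2.42 TPM over all protein-coding genes. These 21 of the 55 genes held 53.5% of the summed TPM of the 55. Col17a1 alone, counted in this set although its class is transmembrane, held 13.9%. Col17a1, the transmembrane collagen of hemidesmosomes, was the highest of all 55 at 398 TPM, above 99.3% of protein-coding genes. It was the 151st highest of them. The other transmembrane collagen genes lay far below it: Col23a1 stood at 0.945 TPM, Col25a1 at 0.494 TPM and Col13a1 at 0.0701 TPM. Type XVII was thus the one member of its class that reached 1 TPM. Col7a1, whose product forms the anchoring fibrils that tie the basement membrane to the dermis, stood at 39.9 TPM, so that Col17a1 was 9.98-fold above it.

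Of the multiplexins, Col18a1, a basement membrane collagen whose end fragment is known as endostatin, stood at 186 TPM. Its relative Col15a1 stood at 8.72 TPM, 21.3-fold lower. Both encode basement membrane proteins, and here the pair was far from even.

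Type IV collagen was represented mainly by its most widespread chains. Col4a1 and Col4a2, whose products join in the type IV trimer found in most basement membranes, stood at 157 and 125 TPM. Col4a5 stood at 29.6 TPM, Col4a6 at 2.75 TPM, Col4a4 at 1.58 TPM and Col4a3 at 0.746 TPM. The chains alpha 3, alpha 4 and alpha 5 form the trimer of the kidney glomerulus, and alpha 5 with alpha 6 forms one found under skin epithelium. Col4a1 was 5.30-fold above Col4a5, the highest of the tissue-restricted chains. Col4a6 was lowest of its trimer, 10.8-fold below Col4a5.

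The 6 type IV genes lie as 3 neighbouring pairs whose members point away from each other. Col4a1 (chromosome 8, 11198423 to 11312889) and Col4a2 (11312805 to 11449287) overlap by 85 bases, and Col4a1 was 1.25-fold the level of Col4a2. Col4a4 and Col4a3 on chromosome 1 overlap by 114 bases, and Col4a3 was 0.473-fold the level of Col4a4. Col4a6 and Col4a5 on the X chromosome lie 1274 bases apart and differed by 10.8-fold, the widest of the 3 pairs. For the overlapping pairs, the sources used here do not say whether strand was used in counting, so reads from the shared bases cannot be assigned to either gene with certainty. All 250 bases before the start of Col4a1 and of Col4a2 lie within one or the other gene and are not printed. In the stretches shown above, Col4a5 has 1 CCAAT match and Col4a6 has none of the 3 sets of letters. Each also has 1 match to GGGCGG in the bases next to its start, which lie inside the annotated gene and are not printed. The full 250 bases before the start of Col4a5 held 10 CpG dinucleotides, and those before Col4a6 held 3.

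Laminin genes had a higher median than collagen genes, but not a larger share of very high members. Of 11 laminin chains, 10 (90.9%) were at 1 TPM or more, with a median of 42.5 TPM over all 11. Of 44 collagen genes, 26 (59.1%) were at that level, near the 55.9% of protein-coding genes, and their median was 2.33 TPM. At 100 TPM or more the share was 18.2% in both sets, and 7 collagen genes were above the highest laminin gene. Among alpha chains, Lama5 led at 149.6 TPM. It encodes the alpha chain of laminin-511, a laminin of adult epithelial basement membranes. Lama3, the alpha chain of the laminin-332 that binds hemidesmosomes, followed at 29.5 TPM. Lama4 and Lama2, chains known from vessels and from muscle and nerve, stood at 2.84 and 1.29 TPM. Lama1, the chain of early embryonic basement membranes, was lowest at 0.0228 TPM. Lama5 was therefore 5.07-fold above Lama3.

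The beta chains were closer together. Lamb1 stood at 134 TPM, Lamb3, the beta chain of laminin-332, at 55.5 TPM, and Lamb2 at 42.5 TPM. Lamb1 was 2.42-fold above Lamb3 and 3.16-fold above Lamb2. Of the gamma chains, Lamc1 stood at 70.5 TPM and Lamc3 at 4.06 TPM. Summed over each kind of chain, alpha chains reached 183 TPM and beta chains 232 TPM.

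**Figure D2:**
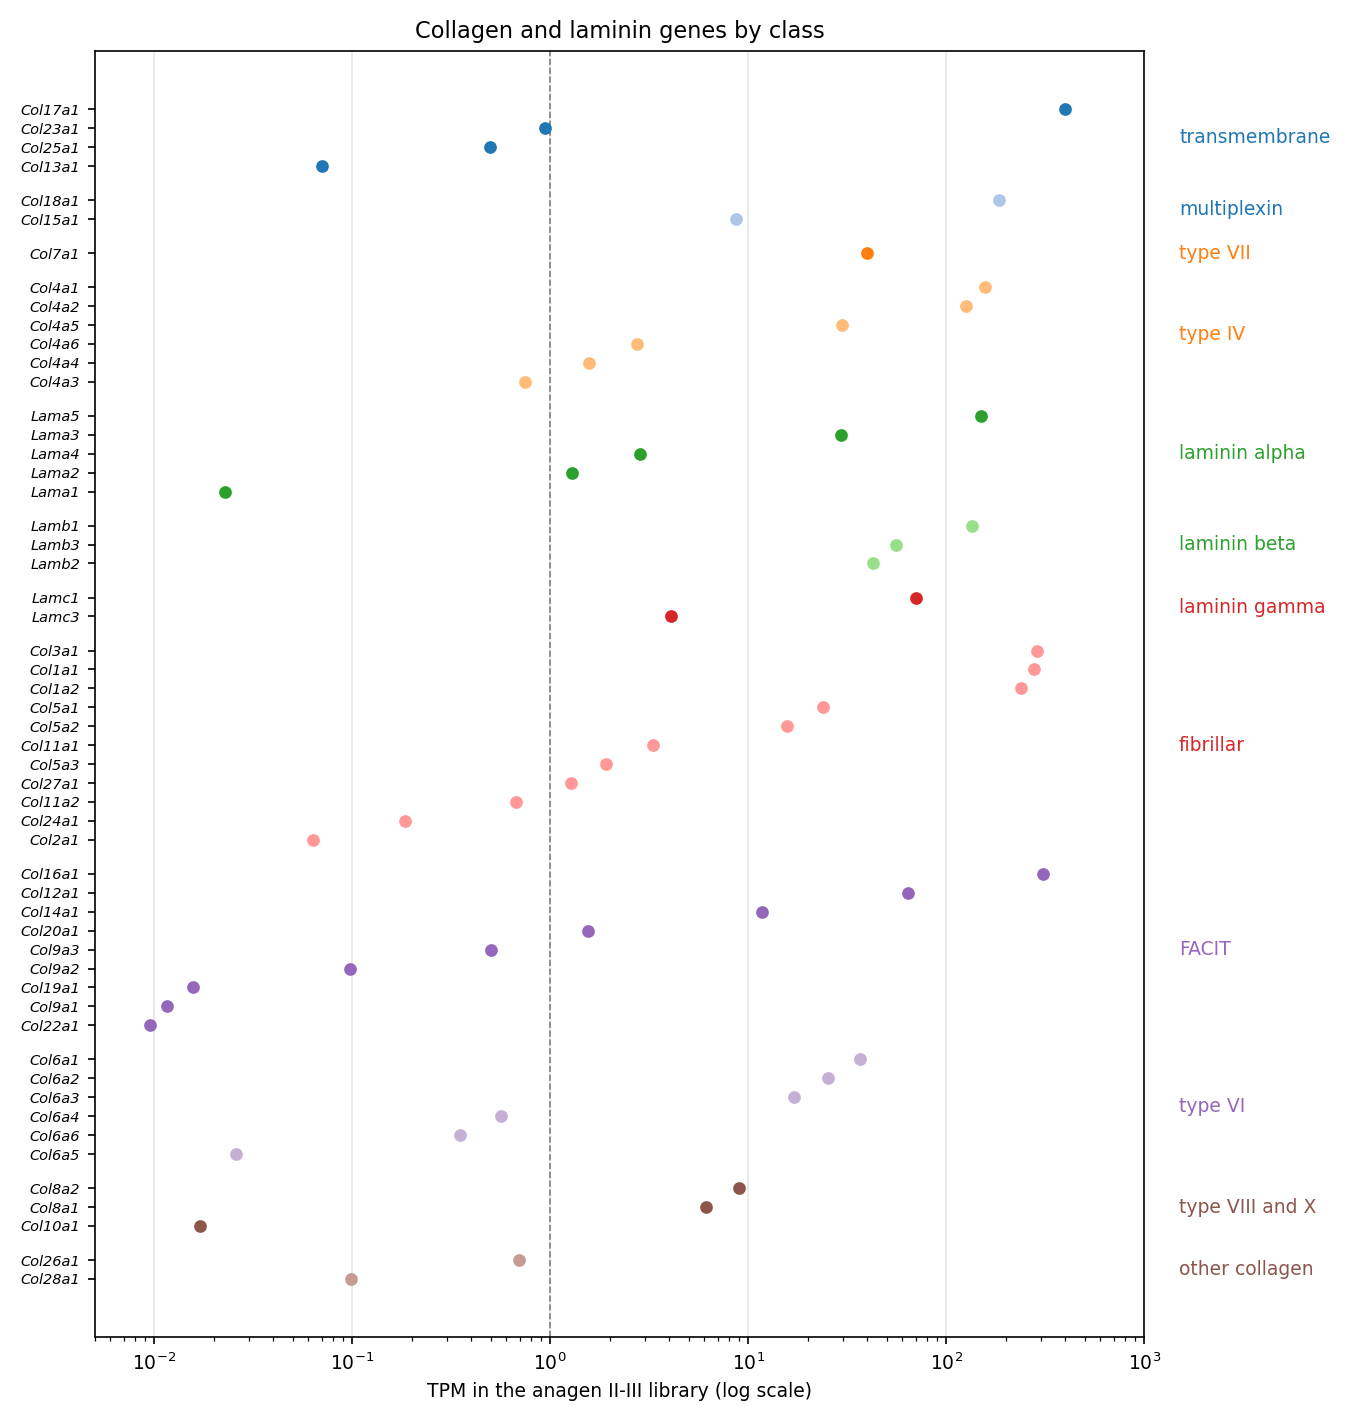
TPM (x axis, log scale) of 54 of the collagen and laminin genes in the anagen II-III library, 1 point per gene, grouped by class and ordered by level within it. The dashed line marks 1 TPM. All laminin beta chains, both multiplexins and Col7a1 lie right of it, and Col17a1 is the highest point at 398 TPM.

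Chains of the same laminin differed in level to different degrees. For laminin-332, Lamb3 was 1.88-fold the level of Lama3. For laminin-511, the alpha and beta chains were nearly level and the gamma chain was lower. Lama5 was 1.11-fold the level of Lamb1 and 2.12-fold that of Lamc1. Lamb1 and Lamc1 also join with other alpha chains, and Lamb2 can take the place of Lamb1, so these ratios do not give the number of trimers. Lama5, Lamb1 and Lamc1 summed to 355 TPM.

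**Figure D3:**
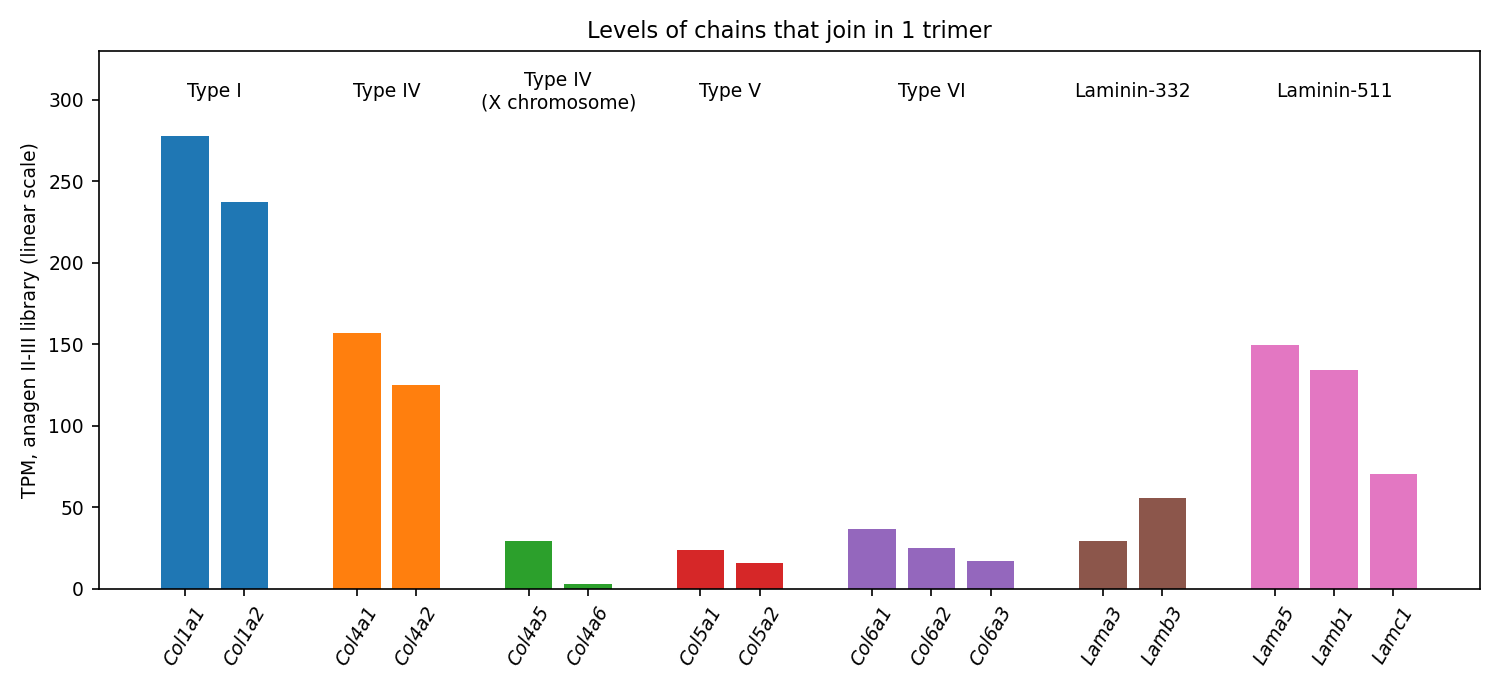
TPM (y axis, linear scale) in the anagen II-III library of chains that join in the same trimer (for laminin-332 its alpha and beta chains), 1 bar per gene and 1 colour per trimer. Col1a1 and Col1a2 are nearly level at 278 and 237 TPM, Col4a5 and Col4a6 are far apart at 29.6 and 2.75 TPM, Lama3 lies below Lamb3, and Lama5 and Lamb1 are nearly level.

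The main fibrillar collagens of the dermis were also among the highest members. Col3a1, the chain of type III collagen, stood at 287 TPM, and Col1a1 and Col1a2, the chains of type I collagen, at 278 and 237 TPM. They ranked 3, 4 and 5 of the 55 genes and together held 28.0% of their summed TPM. Col1a1 was 1.17-fold the level of Col1a2, while the type I trimer takes more alpha 1 than alpha 2 chains. Col3a1 was 1.04-fold the level of Col1a1. The type V chains Col5a1 and Col5a2, which start and thin type I fibrils, stood at 23.8 and 15.7 TPM. The other 6 fibrillar genes lay between 0.0635 TPM for Col2a1 and 3.29 TPM for Col11a1. Of these, Col5a3 stood at 1.92 TPM, Col27a1 at 1.27 TPM, Col11a2 at 0.672 TPM and Col24a1 at 0.184 TPM. Fibroblasts are a major source of type I and III collagen in skin. The fibroblast markers given above were all at 1 TPM or more, against 55.9% of protein-coding genes. Their summed 236 TPM stands beside 802 TPM for Col1a1, Col1a2 and Col3a1. The part of fibroblasts in the fibrillar levels was not tested.

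Col3a1 and Col5a2 are neighbours on chromosome 1, 24624 bases apart, and differed by 18.3-fold. In the windows shown above, Col3a1 has 1 TATAAA match and no CpG, while Col1a2 has 2 matches to GGGCGG, 1 to CCAAT and 11 CpG. The levels of these 2 fibrillar genes were within 1.21-fold of each other.

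Type VI collagen, which forms beaded filaments close to basement membranes, was split between 3 chains above 10 TPM and 3 under 1 TPM. Col6a1 stood at 36.6 TPM, Col6a2 at 25.3 TPM and Col6a3 at 17.0 TPM, the 3 chains of its classical trimer. Col6a1 was 1.44-fold the level of Col6a2 and 2.16-fold that of Col6a3. The other chains, Col6a4, Col6a6 and Col6a5, stood at 0.566, 0.350 and 0.0259 TPM. These 3 genes lie side by side on chromosome 9.

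Among the FACIT collagens, which attach to the surface of fibrils, 1 gene stood far above the rest. Col16a1, whose product is known to interact with integrins and to sit near basement membranes in skin, was the second highest of all 55 genes at 307 TPM. It was 4.77-fold above Col12a1 at 64.4 TPM. Col14a1, another fibril-associated collagen of skin, stood at 11.8 TPM and Col20a1 at 1.55 TPM. The other 5 FACIT genes were under 1 TPM. Col9a3 led them at 0.499 TPM, Col19a1 stood at 0.0157 TPM, and Col22a1 was the lowest of the 55 genes at 0.00951 TPM.

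The network-forming collagens Col8a2 and Col8a1 stood at 8.99 and 6.09 TPM. Type VIII collagen is known from vessel walls and the cornea. Of 6 endothelial markers, 4 (66.7%) were at 1 TPM or more, not far from the 55.9% of protein-coding genes, and they ranged from Kdr at 0.436 TPM to Plvap at 4.65 TPM. Of 5 mural cell markers, 4 (80%) were at that level, summing to 301 TPM over all 5. Acta2 stood at 254 TPM, Cspg4 at 38.6 TPM, Notch3 at 5.25 TPM, Rgs5 at 2.28 TPM and Des at 0.576 TPM. The part of endothelial and mural cells in the level of type VIII collagen was not tested.

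Collagens known from cartilage, a group chosen after its values were seen, were mostly under 1 TPM. Of Col2a1, Col9a1, Col9a2, Col9a3, Col10a1, Col11a1 and Col11a2, 1 of 7 (14.3%) was at 1 TPM or more, against 55.9% of protein-coding genes. That gene was Col11a1 at 3.29 TPM, which ranked 29 of the 55 members. The median of the 7 was 0.0974 TPM. Col9a1 and Col10a1 stood at 0.0116 and 0.0170 TPM. Col26a1 and Col28a1, which belong to none of the classes above, stood at 0.698 and 0.0982 TPM.

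Genes for making collagen ranged widely in level. Collagen chains are hydroxylated on proline and lysine, folded in the endoplasmic reticulum, and then trimmed and crosslinked outside the cell. Of 32 genes for these steps, 26 (81.3%) reached 1 TPM, against 55.9% of protein-coding genes. Over all 32, the median was 12.3 TPM. Enzymes and chaperones that act in the endoplasmic reticulum led the list. Ppib, a proline isomerase, stood at 357 TPM, P4hb, the protein disulfide isomerase that is also the beta subunit of prolyl 4-hydroxylase, at 329 TPM, and Serpinh1, the collagen chaperone HSP47, at 208 TPM. Mia3, which helps to load procollagen for export, followed at 63.9 TPM. At the other end, the prolyl 4-hydroxylase subunit gene P4ha3 stood at 0.0540 TPM and the procollagen protease gene Tll2 was listed at 0.

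The catalytic subunits P4ha1 and P4ha2 were alike at 24.3 and 23.8 TPM, so P4hb was far above both. The lysyl hydroxylase gene Plod3 stood at 52.1 TPM, above Plod1 at 11.0 TPM and Plod2 at 8.73 TPM. Crosslinking oxidases differed among themselves. Loxl2 stood at 13.6 TPM, while Lox, Loxl1, Loxl3 and Loxl4 stood at 2.02, 2.54, 0.928 and 0.280 TPM. Of the proteases that trim procollagen ends, Bmp1 stood at 45.9 TPM, and Adamts2, Adamts3 and Adamts14 at 5.78, 4.76 and 0.386 TPM.

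Receptors that bind laminin were higher than integrins that bind collagen. Bcam, a receptor for the laminin alpha 5 chain, was highest of 13 receptor genes at 436 TPM. The shared integrin beta 1 gene Itgb1 stood at 135 TPM, the laminin integrin genes Itga6, Itga3 and Itgb4 at 99.4, 85.2 and 72.8 TPM, and the dystroglycan gene Dag1 at 97.6 TPM. Itga6 encodes a protein for which the cells were selected. Itga7, another laminin integrin, stood at 8.20 TPM. The collagen integrin genes Itga1, Itga2, Itga10 and Itga11 stood at 5.87, 1.43, 0.876 and 0.490 TPM. Ddr1, a collagen receptor tyrosine kinase of epithelia, stood at 88.9 TPM and its relative Ddr2 at 3.61 TPM.

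Of 17 other genes of basement membranes and the nearby matrix, 16 (94.1%) were at 1 TPM or more, against 55.9% of protein-coding genes. Their median was 10.7 TPM, against 2.42 TPM over all protein-coding genes. Sparc, a collagen-binding protein, stood at 346 TPM, the heparan sulfate proteoglycan gene Agrn at 296 TPM, the matrix protein gene Postn at 288 TPM and the perlecan gene Hspg2 at 109.8 TPM. Nid1 and Nid2, the nidogens that bridge laminin and type IV collagen, stood at 5.34 and 1.63 TPM, well below the Lamc1 and Col4a1 levels of 70.5 and 157 TPM. Nid2 and Frem1, at 0.370 TPM, were the lowest of this list.

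**Figure D4:**
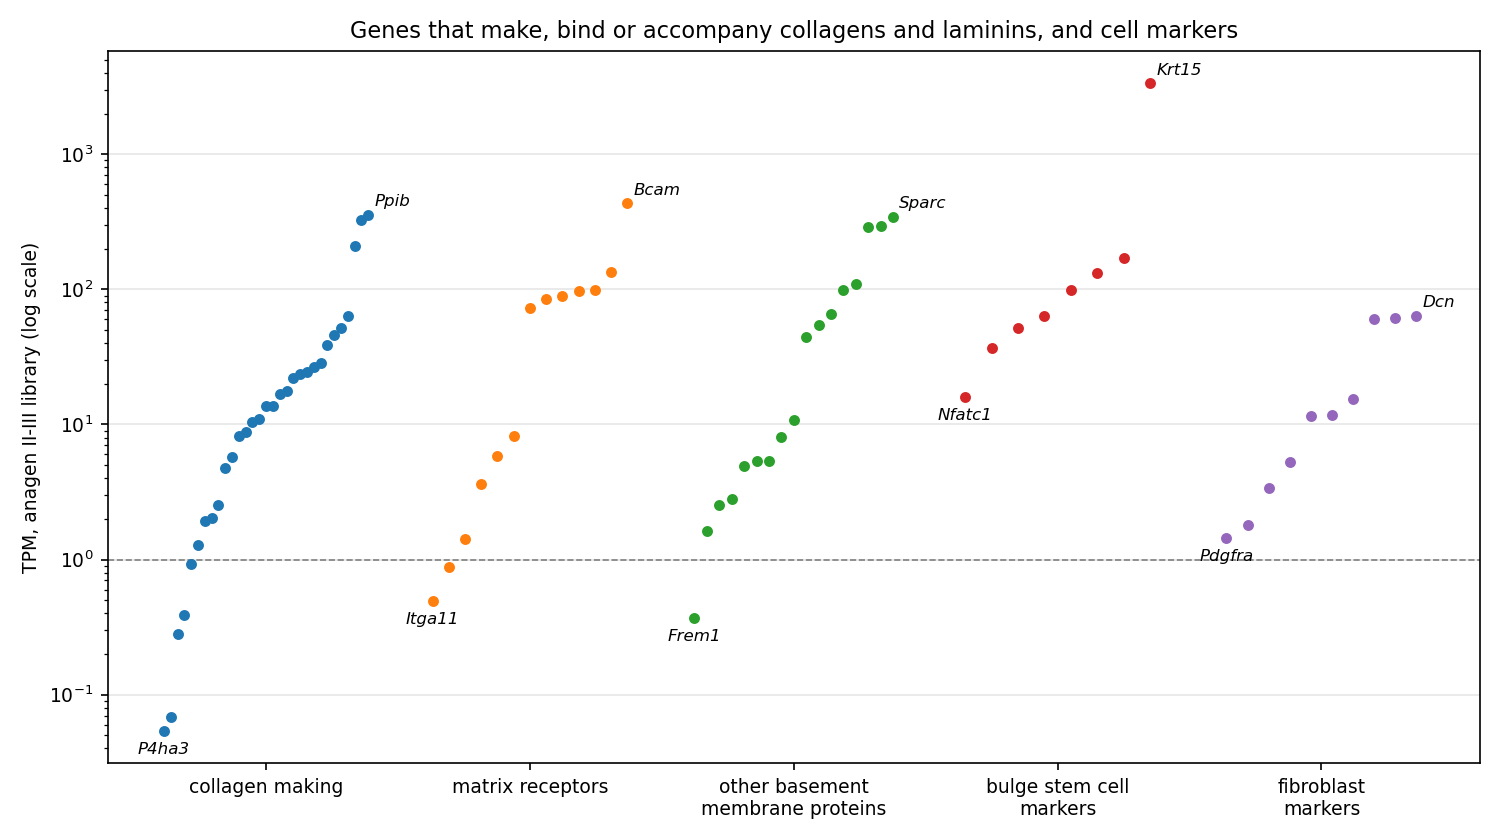
TPM (y axis, log scale) in the anagen II-III library, 1 point per gene, for genes of collagen making, receptors, other basement membrane proteins, bulge stem cell markers and fibroblast markers; the lowest and highest gene of each column are named, and Tll2, listed at 0, is left out. The dashed line marks 1 TPM, and the highest fibroblast marker is Dcn at 63.9 TPM.

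RefSeq windows of the 250 bases before a start were given for 40 of the 55 genes, with 44 windows in all. The other 15, among them Col1a1 at 278 TPM and Col22a1 at 0.00951 TPM, had none. Among the members with a window, level was only weakly related to CpG count. Over the 40 genes, Spearman's rho between TPM and CpG count was 0.126, against 0.614 over 16620 protein-coding genes with a window. Both are descriptions across genes of 1 library, which share its depth. Members at 10 TPM or more had a median of 10 CpG, and those under 1 TPM a median of 9. Over protein-coding genes the medians were 17 and 3. Highly expressed members covered most of the range, from Col3a1 with 0 and Col17a1 with 2 CpG, at 287 and 398 TPM, to Col16a1 with 21 and Col4a1 with 31, at 307 and 157 TPM. Col13a1 had 24 CpG and stood at 0.0701 TPM.

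The letters GGGCGG were in 54.5% of the 44 member windows, against 42.6% of all 21255 protein-coding windows, CCAAT in 31.8% against 35.4%, and TATAAA in 11.4% against 11.6%. All were searched on both strands. The 5 member windows with TATAAA belonged to Col3a1, Col10a1, Col11a2, Col13a1 and Col17a1, whose levels ran from 0.0170 to 398 TPM. In the sequence shown above, Col17a1 has 2 TATAAA matches. Matches describe these letters only and do not show that a factor binds.

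**Figure D5:**
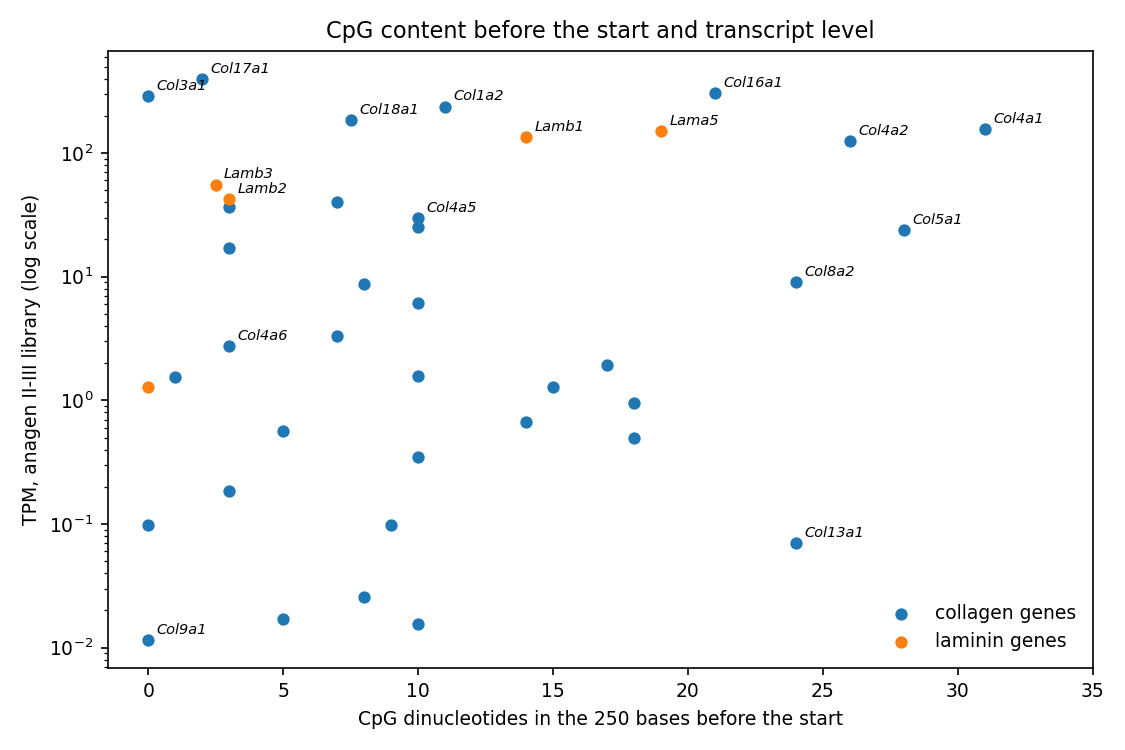
TPM in the anagen II-III library (y axis, log scale) against the number of CpG dinucleotides in the 250 bases before the start (x axis; the mean where a gene has several windows), 1 point for each of 40 collagen and laminin genes. Genes above 100 TPM lie across the whole x axis, from Col3a1 with 0 CpG to Col4a1 with 31.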

How the data were processed

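RNA from sorted hair follicle stem cells was sequenced in paired ends on an Illumina HiSeq machine, per the labels' protocols. The deposited values are TPM, per the file headers, and the submitters' processing notes name Bowtie2 2.2.9, RSEM 1.2.30 and mm10. Annotation, strand setting and filters were not given in the sources used here. The column whose name starts with 1 was taken as the anagen sample, whose title alone has that number. Nothing else ties these values to the anagen stage. A further 11 per-sample columns were not used.

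Each gene ID was used once (42661 rows, 42392 IDs, summing to 1000000 TPM). All 55 genes matched RefSeq GRCm38.p6 by symbol, which supplied gene types and positions, and mm10 is another name of GRCm38. Where a symbol stood on several IDs, the higher value was taken. The 20857 protein-coding genes exclude mitochondrial ones.

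The members, classes and lists were chosen with earlier results of these data known. Genes named are the members at 1 TPM or more, of which 1 is not reported here, the basement membrane members, and the 4 highest and 2 lowest of other lists. Members under 1 TPM were named in addition, as were other enzymes of collagen making, and TATAAA and the cartilage group, which were chosen after their values were seen. The level of 1 TPM is a description, not a detection limit. With 1 library, no p-value was computed. TPM depends on the library's total, so a few abundant genes lower all others. Functions were tested on simulated data. Python 3.11.15, pandas 2.3.3, numpy 2.4.6, scipy 1.17.1 and matplotlib 3.10.9 were used.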

Additional observations from a re-analysis of the deposited data

How the results depend on the processing

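Values were called moved where they changed by over 1.5 times, since no replicate gives a spread. Thresholds of 0.5 and 5 TPM were tried on 4 counts, those of all members and of the lists for collagen making, receptors and other basement membrane proteins, and each stayed within that factor, with 41 and 27 of the collagen and laminin genes. The counts of single classes and marker lists were not recomputed, and small ones can change more: the highest endothelial marker, Plvap, is at 4.65 TPM. The 20 ratios between genes stayed within it with 1 or 0.1 added to each TPM. Medians moved more, because most classes hold a few high and several very low genes. Over members at 1 TPM or more, the median was 29.6 TPM for all collagens and laminins, 19.8 for fibrillar, 29.6 for type IV, 25.3 for type VI, 38.1 for FACIT and 398 TPM, a single gene, for transmembrane collagens. Rescaling without mitochondrial and the 50 highest genes raises every level 1.73-fold by construction, to medians of 7.04 TPM for all members, 5.70 for fibrillar, 28.0 for type IV, 15.2 for type VI, 10.5 for types VIII and X, 0.865 for FACIT, 1.25 for transmembrane collagens and 73.6 TPM for laminins, and the share of the library to 0.496%. The geometric mean with a pseudocount of 1 was 8.62 TPM for all members, 10.5 for fibrillar, 4.81 for type VI, 3.16 for types VIII and X, 3.70 for FACIT, 4.94 for transmembrane collagens and 20.5 TPM for laminins. With a pseudocount of 0.1 it was 7.03 for fibrillar, 2.81 for type VI, 1.77 for types VIII and X, 1.49 for FACIT, 2.45 for transmembrane collagens and 16.0 TPM for laminins. Differences between members at low TPM cannot be judged, as depth is unknown. No paired analysis was possible because only 1 library was analysed.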

Other observations

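Short RNA genes lie inside some members, and the table gives them levels of their own. Mir7005, which lies within Lama5 and shares 69 bases with it, was listed at 22.7 TPM, beside 149.6 TPM for Lama5. Mir711, within Col7a1 over 82 bases, was listed at 5.25 TPM, beside 39.9 TPM for Col7a1. Mir455, within Col27a1, was listed at 0. These values are for hairpin genes in an mRNA library, and how reads of the shared bases were divided is not given in the sources used here. In all, 29 of the 55 collagen and laminin genes share bases with another annotated gene of any type, and 6 of them with a protein-coding one.

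The gene Nt5dc1 spans all 7105 bases of Col10a1 and stood at 7.03 TPM, beside 0.0170 TPM for Col10a1. The long noncoding RNA C430014B12Rik overlaps Col4a3 by 30533 bases and stood at 1.86 TPM, beside 0.746 TPM for Col4a3.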
